A study of Mus musculus with 6 samples.

Results

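The genes described here are the 9 genes of retinoic acid receptors, synthesis, binding and breakdown: the receptor genes Rara, Rarb and Rarg, the retinal dehydrogenase genes Aldh1a1, Aldh1a2 and Aldh1a3, the binding protein genes Crabp1 and Crabp2, and the degrading enzyme gene Cyp26b1. They were taken by name from the 19938 genes that had a probe set of a single gene symbol on the array. All 9 were measured, each by 1 probe set. The samples were enterospheres, floating clusters of neural progenitor cells raised from the gut muscle of newborn C57BL/6 mice, after 4 and then 5 days of growth with EGF and FGF. The spheres were placed in differentiation medium with ascorbic acid-2-phosphate for 1 day and then kept for 1 more day either with triiodothyronine (T3, thyroid hormone in its receptor-binding form, at 100 nM, the unit being read so from "nm") or without it as untreated controls. There were 3 samples in each of these 2 groups, all of the same strain and age, each pooling cells of 3 mice and read on 1 array. Values are the authors' normalised log2 signals, and a difference of 1 is a doubling of signal. The array gives no detection calls and no depth, so that the precision is limited by the 3 arrays per group. Signals of different genes come from different probes, and no order of abundance among genes was drawn from them.

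Retinoic acid is made from vitamin A in steps: alcohol and short-chain dehydrogenases turn retinol into retinal, and the ALDH1A enzymes turn retinal into retinoic acid. The CRABP proteins hold it in the cytoplasm and CYP26 enzymes oxidise it for removal. In the nucleus it binds RAR proteins, which sit on DNA as partners of RXR proteins, the same partners that thyroid hormone receptors use. Both kinds of receptor recognise repeats of a similar hexamer and differ in the spacing they prefer. In the developing gut, vitamin A and retinoic acid are known to be needed for neural crest cells to colonise the bowel and for enteric neurons to form.

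T3 raised 1 of the 9 genes, Rarb, the receptor gene known for its own response to retinoic acid, by 1.92-fold in signal. The other 8 did not pass the test (limma, Benjamini-Hochberg adjusted p under 0.05 over all genes). Over all genes, 618 passed, or 3.10%, with 2.28% higher and 0.823% lower, so that 1 of 9 is a count too small to set apart from that background. T3 and control values were fully apart for 3 of the 9 genes, Rarb, Aldh1a3 and Crabp1, against 19.5% of all genes. Of these, Aldh1a3 and Crabp1 were lower with T3. Aldh1a3, a retinoic acid-making enzyme, differed by -0.90 ± 0.20 (SE) on the log2 scale at adjusted p = 0.0517, and Crabp1, a cytoplasmic carrier, by -0.41 ± 0.11 (SE) at adjusted p = 0.0984. The remaining 6 had log2 changes between -0.14 and 0.13. The median change of the 9 was -0.08, beside 0.0088 over all genes. The count of 1 became 2 without the dimmest 25% of genes, where 4.84% of the genes kept passed. Without the dimmest 50%, where 7.47% passed, it was 2 of the 7 that were kept. It was 3 with a trended and robust variance model (4.39% of all genes passed) and 3 with array quality weights (17.8%). When all 35556 probe sets were tested together it was 0, and 0.461% of probe sets passed.

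**Figure D1:**
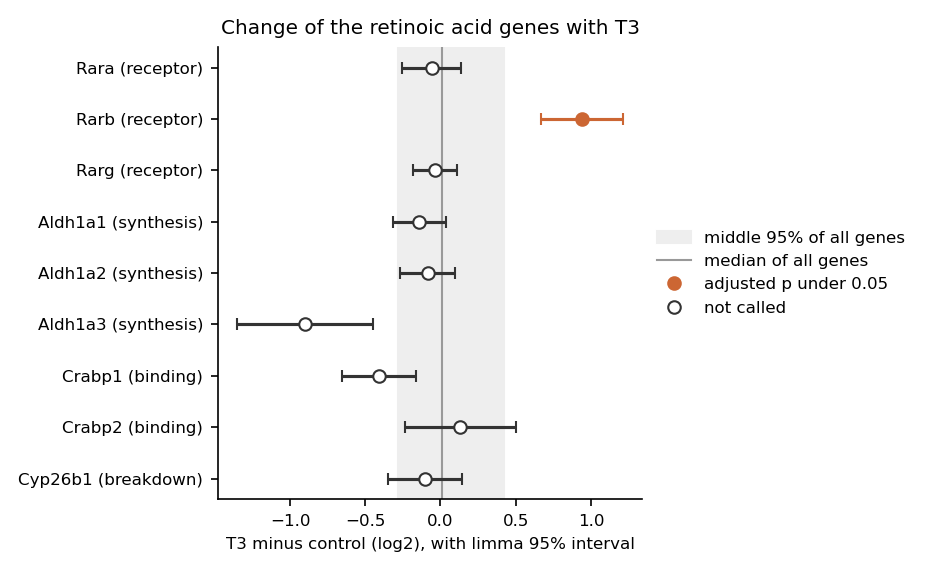
Change of each of the 9 genes, T3 minus control, on the log2 scale, as points with 95% intervals from limma; the filled point passed the test, the grey band holds the middle 95% of all 19938 genes (-0.28 to 0.42) and the grey line is their median. Rarb lies to the right of the band and Aldh1a3 and Crabp1 to its left, the intervals of Rarb, Aldh1a3 and Crabp1 do not reach 0, and those of the other genes do.

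Among the receptors, Rarb, which encodes retinoic acid receptor beta (probe set 10417713), read 7.22, 7.56 and 7.21 in control replicates 1, 2 and 3 and 8.45, 8.14 and 8.22 in T3 replicates 1, 2 and 3. Every T3 value was above every control value, and the gap between the groups, from 7.56 to 8.14, was wider than the range within either. The control mean was 7.33 ± 0.20 (SD, n = 3), at the 63.8th percentile of all probe sets, and the T3 mean was 8.27 ± 0.16 (SD, n = 3). The log2 change was 0.94 ± 0.12 (SE), with a 95% interval of 0.67 to 1.21 and adjusted p = 0.00578 (limma). It was higher than 99.7% of the changes of all genes. In each of the 6 fits that left out 1 array it stayed between 0.85 and 1.06 and passed, with adjusted p from 0.00296 to 0.0369; tested among all 35556 probe sets, unnamed ones included, it had adjusted p = 0.0521.

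Rarb is shown with the sequence before its start because this promoter holds the best-known response element for retinoic acid receptors, a pair of hexamers in the same direction with 5 bases between (a DR5 repeat). The 250 bases upstream of the listed start, at chr14:16575477-16575726 on the minus strand (RefSeq, GRCm38.p6), read as follows 5′ to 3′, with capitals marking the hexamers of the repeat.
Rarb: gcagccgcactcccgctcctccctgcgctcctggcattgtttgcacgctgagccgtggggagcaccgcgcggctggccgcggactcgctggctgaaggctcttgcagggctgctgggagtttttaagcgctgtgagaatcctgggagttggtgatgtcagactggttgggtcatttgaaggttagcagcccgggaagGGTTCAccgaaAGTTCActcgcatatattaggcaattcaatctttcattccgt
The repeat lies 53 to 37 bases upstream of the start, at chr14:16575513-16575529, and a further hexamer, left in lower case, 83 to 78 bases upstream. Both strands of each window of 300 bases, 250 before and 50 after a start, were searched for the hexamer AGGTCA, for AGTTCA, for GGGTCA and for GGTTCA, and for any of these paired in the same direction with 2, 4 or 5 bases between. The RefSeq table held 12 windows for 7 of the 9 genes and none for Aldh1a3 and Crabp2. Rarb had the DR5 repeat in its 1 window, and no such repeat was matched in the other 11. Of all 32851 windows, 32, or 0.0974%, held it. Pairs with 4 bases between, the spacing known for thyroid hormone receptors, were matched in none of the 12 and in 0.0822% of all windows, and pairs with 2 bases between in none of the 12 and in 0.268%. At least 1 of the hexamers was found in 5 of the 12 windows and in 43.7% of all, so that hexamers as such are common. The window of 1 of the 4 listed Rara starts is set beside it because it holds 4 hexamers, none of them paired at those spacings; capitals mark the hexamers of either strand, in chr11:98939461-98939710 on the plus strand.
Rara: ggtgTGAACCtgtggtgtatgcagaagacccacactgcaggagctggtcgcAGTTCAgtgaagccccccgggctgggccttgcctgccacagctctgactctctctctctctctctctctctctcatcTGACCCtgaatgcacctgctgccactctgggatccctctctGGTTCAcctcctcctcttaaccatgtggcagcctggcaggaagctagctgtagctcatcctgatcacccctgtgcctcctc
The arrays measured the level of Rarb RNA by 1 probe set and neither the start it came from nor binding at this site. A match is a description of the letters only.

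**Figure D2:**
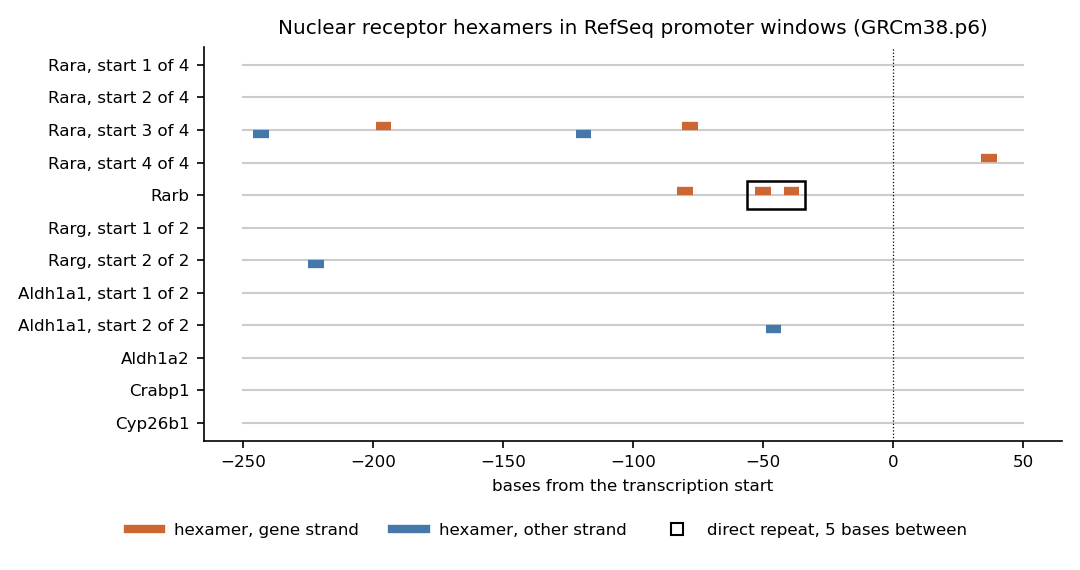
Position of each matched hexamer, in bases from the transcription start, in the 12 RefSeq windows of 7 of the genes, above the line for the gene's strand and below it for the other; a box marks the pair with 5 bases between. The boxed pair stands in the Rarb window alone among the 12, at 53 to 37 bases upstream.

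The other 2 receptor genes gave values that overlapped between the groups. Rara, for receptor alpha, the form most widely expressed among tissues, read 8.80, 9.05 and 9.02 in controls and 8.88, 8.85 and 8.96 with T3. Its log2 change was -0.06 (95% interval -0.25 to 0.14, adjusted p = 0.884), a sign that turned with array quality weights. Rarg, for receptor gamma, known from skeletal and skin development, read 9.23, 9.24 and 9.21 in controls and 9.22, 9.16 and 9.20 with T3, the tightest of the 9 genes in controls, with an SD of 0.016. Its change was -0.03 (95% interval -0.18 to 0.11, adjusted p = 0.918). The upper bounds of both, 0.14 and 0.11, lie under the lower bound of Rarb, 0.67.

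**Figure D3:**
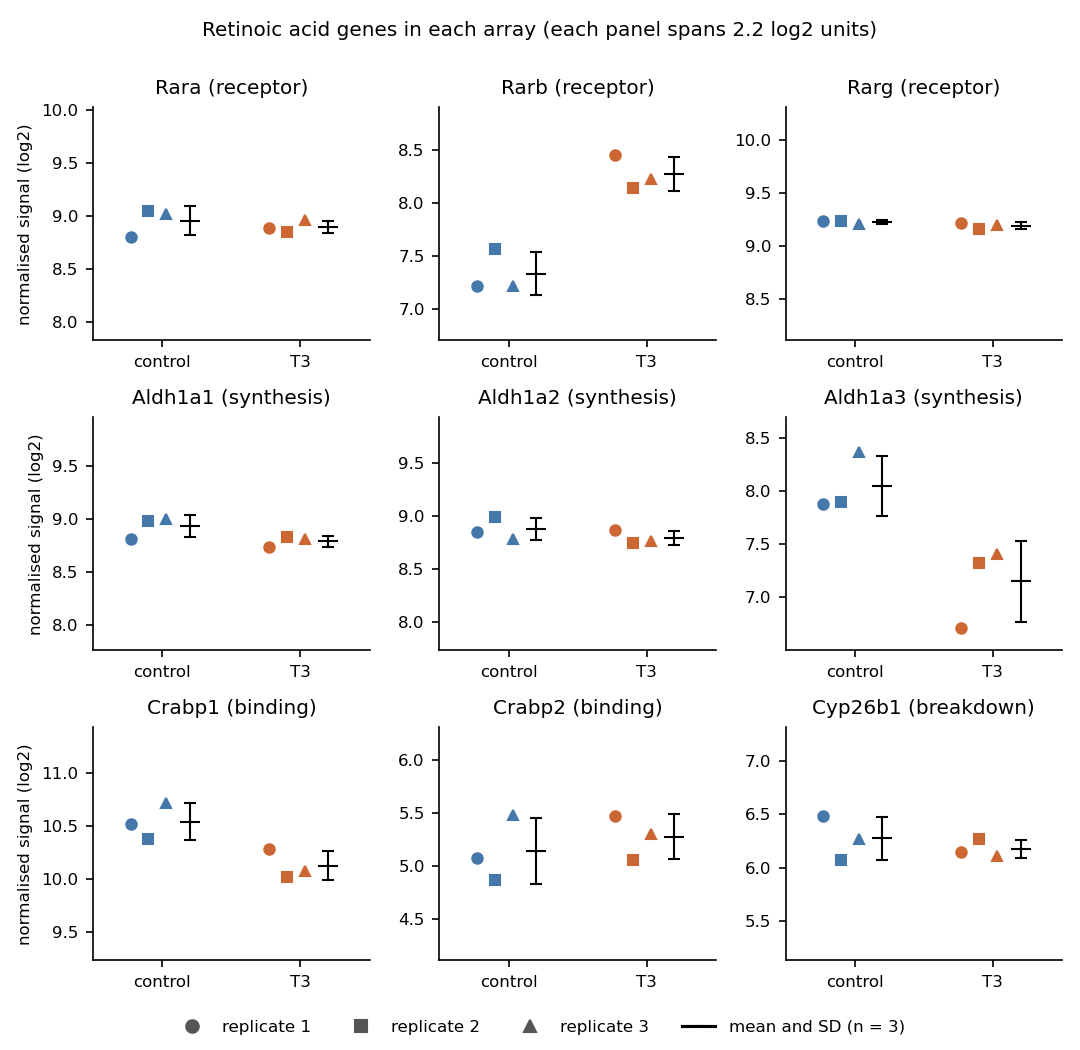
Normalised log2 signal of each of the 9 genes in each array, controls in blue and T3 in orange, with a symbol per replicate number and the mean and SD of each group (n = 3) beside them; all panels span the same height. The groups stand apart for Rarb (T3 higher), Aldh1a3 and Crabp1 (T3 lower) and overlap for the other 6 genes.

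Of the enzymes that make retinoic acid, Aldh1a3, known from the eye, the nasal region and the forebrain (probe set 10564417), read 7.88, 7.90 and 8.37 in controls and 6.71, 7.33 and 7.41 with T3. All T3 values were below all control values, but T3 replicate 1 lay far under the other 2 T3 samples and control replicate 3 over the other 2 controls. The means were 8.05 ± 0.28 (SD, n = 3) and 7.15 ± 0.38 (SD, n = 3), the widest spread of any of the 9 genes with T3, and the signal was 1.87-fold lower. The log2 change of -0.90 had a 95% interval of -1.35 to -0.45 and was lower than all but 0.0903% of the changes of all genes, and yet it missed the threshold at adjusted p = 0.0517 (limma). It passed in none of the 6 fits that left out 1 array, with changes of -1.03 to -0.68 and adjusted p from 0.0676 to 0.127. It did pass when the dimmest 25% of genes (0.0454) or 50% (0.0317) were left out, with a trended and robust variance model (0.0191) and with array quality weights (0.00858, at a change of -0.62).

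Aldh1a1 and Aldh1a2 moved little. Aldh1a2, the main retinoic acid-making enzyme of the early embryo and of mesenchyme and mesothelium, read 8.85, 8.99 and 8.78 in controls and 8.87, 8.74 and 8.76 with T3. Its log2 change was -0.08 (95% interval -0.27 to 0.10, adjusted p = 0.781). Aldh1a1, a cytosolic enzyme of the same family, read 8.81, 8.98 and 9.0 in controls and 8.73, 8.83 and 8.80 with T3, the highest T3 value being just over the lowest control. Its change was -0.14 (95% interval -0.32 to 0.03, adjusted p = 0.503). Aldh1a7, a close copy of Aldh1a1 in the mouse, had a change of -0.14 as well, and whether their probes share signal was not tested.

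Of the carriers, Crabp1, a marker of retinoic acid-sensitive embryonic neural crest and neurons (probe set 10585438), was at the 94.1st percentile of all probe sets in controls, with values of 10.52, 10.37 and 10.72. With T3 it read 10.28, 10.02 and 10.08. The groups did not overlap, but the lowest control and the highest T3 value were close, 10.37 against 10.28. The signal was 1.33-fold lower with T3, and the change of -0.41 had a 95% interval of -0.66 to -0.16 and adjusted p = 0.0984 (limma). It passed with a trended and robust model (0.0313) and with array quality weights (0.00232), and in none of the 6 fits that left out 1 array (0.0536 to 0.303). Crabp2, which carries retinoic acid to its receptors in the nucleus and is a known target of them, read 5.08, 4.87 and 5.48 in controls and 5.47, 5.05 and 5.30 with T3. At the 35.2nd percentile, this signal is not known to be above background. Its change was 0.13 (95% interval -0.24 to 0.50, adjusted p = 0.846), and without control replicate 2 it was -0.0047.

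The gene for breakdown, Cyp26b1, whose enzyme clears retinoic acid from embryonic tissues, read 6.48, 6.07 and 6.27 in controls and 6.14, 6.27 and 6.1 with T3. The groups overlapped fully, with a change of -0.10 (95% interval -0.35 to 0.15, adjusted p = 0.812), and without control replicate 1 the change was 0.0027. At the 51.9th percentile the signal is about the array median, and array background can compress a change of such a gene.

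The genes of each family were then set against each other within arrays, to see whether members of a family changed by different amounts. Rarb changed by 1.00 more than Rara and by 0.98 more than Rarg on the log2 scale. Both differences gave p = 0.10 in an exact two-sided permutation test over the 20 splits of 6 arrays, the smallest p that 3 against 3 can give, and adjusted p = 0.14 over the 7 pairs compared. Aldh1a3 minus Aldh1a1 changed by -0.76, Aldh1a3 minus Aldh1a2 by -0.82 and Crabp2 minus Crabp1 by 0.54, each with the same exact p = 0.10 and adjusted p = 0.14. In those 5 pairs the T3 and control differences were fully apart, and this test cannot bring any of them under 0.05 with 3 arrays per group. Rarg minus Rara changed by 0.02 (exact p = 0.80, adjusted p = 0.80) and Aldh1a2 minus Aldh1a1 by 0.06 (exact p = 0.60, adjusted p = 0.70), with signs that turned when 1 array was left out.

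Other genes of the pathway were taken from lists by function, some genes being on more than 1 list. None of the 9 measured genes of RXR partners and coregulators passed (limma; 3 at an unadjusted p under 0.05, which 13.7% of all genes reached). Rxrg, an RXR gene of neural and muscle tissue, had values of 8.37, 8.71 and 8.40 in controls and 9.17, 8.89 and 8.91 with T3. They did not overlap, and the change was 0.50 ± 0.12 (SE, adjusted p = 0.0614); the test was passed after centring on the median (0.0355), without the dimmest 50% of genes (0.0329), with a trended and robust model (0.0233), with array quality weights (0.00159) and without control replicate 2 (0.0216). Rxra and Rxrb, the widely expressed RXR genes, had changes of -0.05 and 0.0010, with overlapping groups. Ncoa7, a coactivator gene, had a change of 0.39 (adjusted p = 0.189), with groups that did not overlap.

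None of 14 measured genes of retinol uptake, binding and storage passed (limma; 1 at an unadjusted p under 0.05). That gene was Stra6, the cell-surface receptor for retinol-binding protein, with 7.18, 7.21 and 7.68 in controls and 6.83, 6.81 and 6.95 with T3. The T3 values were below all controls, and the change was -0.49 ± 0.13 (SE, adjusted p = 0.101). Rbp4, the carrier of retinol in blood, had a change of 0.32 (adjusted p = 0.393) with overlapping groups. The list median was -0.0042.

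Of 22 retinol and retinal dehydrogenases and reductases, 1 rose and 21 did not pass, beside 2.28% of all genes higher. A count of 1 is too small to set apart from that share. Adh7, an alcohol dehydrogenase with high activity on retinol, rose 2.22-fold. It read 6.47, 7.04 and 6.38 in controls and 8.26, 7.57 and 7.51 with T3, so that T3 replicate 1 was well over the other 2 and no values overlapped. The change was 1.15 ± 0.23 (SE, adjusted p = 0.0344 by limma), and it passed in 1 of the 6 fits without 1 array, the one without control replicate 2, with adjusted p up to 0.151 in the others; tested among all probe sets it had 0.165. Akr1b10, of an aldo-keto reductase family that acts on retinal, had a change of 0.30 (adjusted p = 0.151), with groups that did not overlap. Of the list, 5 genes had an unadjusted p under 0.05 (limma), beside 13.7% of all genes, and the list median was 0.03.

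Among 8 other genes of retinoic acid breakdown and binding, 1 fell and 7 did not pass, beside 0.823% of all genes lower. Here too a count of 1 is too small to set apart from the share over all genes. Fabp5, a fatty acid-binding protein that can hand retinoic acid to PPAR delta, read 9.64, 9.65 and 9.59 in controls and 9.20, 9.20 and 9.32 with T3. Each T3 value was lower than each control, with a change of -0.39 ± 0.07 (SE, adjusted p = 0.0229 by limma). Another probe set of Fabp5 gave -0.40, and signal from copies of this gene cannot be told apart here. It no longer passed when a T3 array or control replicate 1 was left out, where adjusted p reached 0.119, or when all probe sets were tested (0.0936). Ugt2b5, a gene of a conjugating enzyme, had a change of 0.11 (adjusted p = 0.748). Cyp26a1 and Cyp26c1, the relatives of Cyp26b1, had changes of -0.07 and -0.06 at control signals of 4.24 and 5.50, under the array medians of 6.09 to 6.15.

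Of 27 measured genes known to respond to retinoic acid, 2 rose and 25 did not pass, beside 2.28% of all genes higher. They were Rarb, already counted among the 9, and Tgm2, tissue transglutaminase, a long-known target of retinoic acid in several cell types. Tgm2 read 7.58, 7.79 and 8.01 in controls and 8.50, 9.09 and 9.15 with T3. Its values did not overlap, and it rose 2.17-fold, with a change of 1.12 ± 0.18 (SE, adjusted p = 0.0144 by limma). It no longer passed when T3 replicate 2, T3 replicate 3 or control replicate 1 was left out, where adjusted p reached 0.0723, or when all probe sets were tested (0.0950). The list median was 0.07 and 18 of the 27 changes were above 0, beside 53.3% of all genes. Crabp2, Cyp26a1 and Dhrs3, a retinal reductase gene (change 0.12, adjusted p = 0.610), are also on this list and did not pass, nor did Stra6, at -0.49 the most lowered of the 27. An unadjusted p under 0.05 (limma) was reached by 6 of the 27, beside 13.7% of all genes. Besides Rarb, Tgm2 and Stra6 these were Rarres1 at 0.61, Ret at 0.26 and Hoxa4 at 0.23. The groups did not overlap for 8 of the 27, beside 19.5% of all genes.

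**Figure D4:**
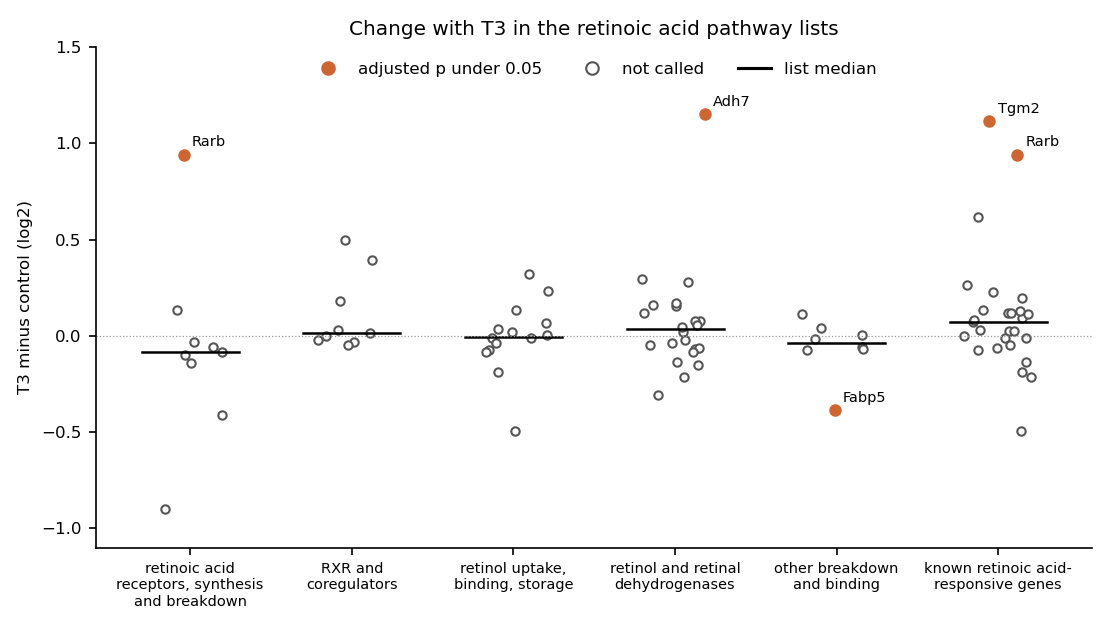
Change of each measured gene, T3 minus control on the log2 scale, in the 9 genes and the 5 further lists; filled points passed the test and are named, and bars are list medians. Rarb, Adh7 and Tgm2 stand near or above 1 and Fabp5 at -0.39, while each list median lies between -0.08 and 0.07.

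In whole spheres a lower signal can come from fewer cells of a type or from less RNA per cell. A higher signal can come from more cells of a type or from more RNA per cell. In neither case can these be told apart. Markers of the labelled cell type were bright. The 7 measured genes of enteric neural progenitors had mean log2 values of 11.37 to 11.41 in controls and 11.31 to 11.45 with T3. None passed (1 at an unadjusted p under 0.05). The log2 of their summed signal was 14.29 to 14.34 in controls and 14.27 to 14.38 with T3. Bright markers were not confined to that type: fibroblast and mesenchyme markers had mean log2 values of 10.83 to 10.94 in controls and 10.76 to 10.82 with T3. Of 12 measured neuron markers, 3 passed, all higher with T3 (Prph, Nos1 and Snap25), beside 3.10% of all genes. The other 9 did not pass. Of these, Vip at 0.26, Stmn2 at 0.25, Th at 0.22, Tubb3 at 0.03 and Elavl4 at 0.02 were above 0. Chat at -0.0096, Uchl1 at -0.02, Gap43 at -0.09 and Elavl3 at -0.13 were below it. Thus 8 of the 12 changes were above 0, and 5 of the 12 had an unadjusted p under 0.05 (limma), beside 13.7% of all genes. The log2 of the summed signal of the 12 was 14.00 to 14.14 in controls and 14.19 to 14.26 with T3. For 4 measured glia markers it was 12.35 to 12.49 in controls and 12.27 to 12.31 with T3, and none passed (1 at an unadjusted p under 0.05). For 7 fibroblast and mesenchyme markers the ranges were 13.78 to 13.90 and 13.76 to 13.79, and for 7 mesothelium markers 8.35 to 8.55 and 8.49 to 8.93; none passed in either list (2 and 1 at an unadjusted p under 0.05). Of 6 smooth muscle markers 1 was higher and 2 were lower with T3, of 4 markers of interstitial cells of Cajal 1 was higher and of 6 endothelial markers 1 was lower. None of 5 leukocyte and 5 epithelial markers passed (limma; 0 at an unadjusted p under 0.05 in each). No value on these arrays is 0, and without detection calls it is not known which markers were above background. The part of these cell types in the changes of Rarb, Aldh1a3 and Crabp1 was not tested.

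The pattern of Rarb over the 6 arrays was most like those of Gpr158, an orphan receptor gene, St8sia3, a sialyltransferase gene, and Ppp2r2c, a gene of a phosphatase subunit. With every gene centred on its own mean, the root mean square difference from Rarb over the 6 arrays was 0.06, 0.06 and 0.08 on the log2 scale. All 3 were higher with T3, with changes of 1.04, 0.85 and 0.80. Like Rarb they were highest in T3 replicate 1 among T3 samples and in control replicate 2 among controls. Both traits follow from picking the genes nearest to Rarb over these same arrays and are no separate result.

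**Figure D5:**
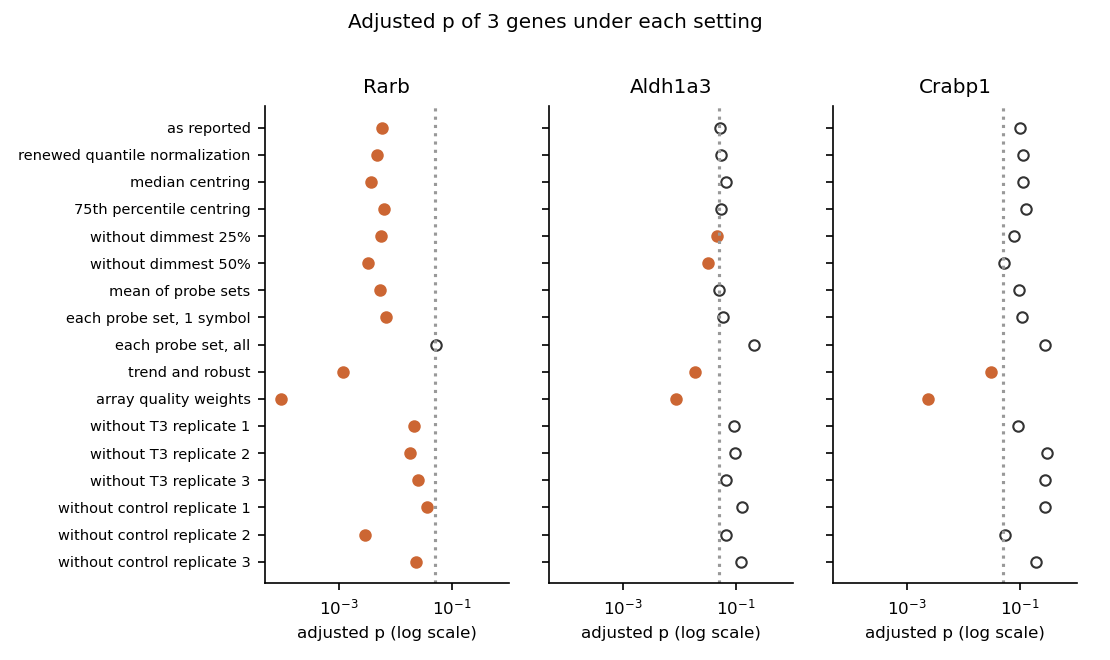
Adjusted p (log axis) of Rarb, Aldh1a3 and Crabp1 as reported and under other settings of normalization, gene filter, probe sets, variance model and arrays used, with the threshold of 0.05 as a dotted line. Rarb is left of the line in every setting shown except the test over all probe sets (0.0521). Aldh1a3 has values on both sides of the line, from 0.00858 to 0.207, and Crabp1 passes with 2 of the settings.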

How the data were processed

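Total RNA of 6 samples was hybridised to Affymetrix mouse gene arrays. The authors deposited 1 log2 expression value per probe set and sample, 35556 probe sets in all; the submitters' processing notes name RMA and Partek 6.5, with no settings, probe set level or genome build (not given in the sources used here). RMA as usually run equalises the distributions of arrays, so a change common to most genes would not be seen. Of the probe sets, 21789 have 1 symbol in the platform annotation, 1621 have several and 12146 are not listed in it. A gene was represented by its probe set of highest mean. Groups came from the sample titles.

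T3 minus control was fitted for 19938 genes with limma 3.58.1 in R 4.3.3 (lmFit, eBayes), as a two-sided test, adjusted over all genes by Benjamini-Hochberg, and a call at adjusted p under 0.05. SE and 95% intervals are limma's; SD is over 3 arrays. Labels do not tell whether the samples of a group were separate preparations, so p-values measure only the spread between these samples. On simulated data with 200 of 19938 genes changed, the fit recovered 48.0% of log2 changes of 0.5 and 92.5% of changes of 1, and 3.65% of calls were false. The simulated noise was normal and independent for each gene, with its SD within groups, and held no shift shared by genes of an array. These shares need not hold for the real arrays.

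The 9 genes, the lists and the alternatives were chosen with earlier results of these data known. Named were the 9 genes and, of each further list, called genes and the 2 of smallest p. Rxra, Rxrb, Cyp26a1, Cyp26c1, Aldh1a7, Dhrs3, Syndig1, Rarres1, Ret and Hoxa4 were added after their values were seen. The names of all 12 neuron markers were added in the same way. The named T3-responsive genes Hr and Klf9 had log2 changes of 1.92 and 1.86. Promoter sequences are RefSeq's (GRCm38.p6) and were searched by exact letters.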

Additional observations from a re-analysis of the deposited data

How the results depend on the processing

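The direction of Rarb, Aldh1a3, Crabp1, Rarg, Aldh1a1 and Aldh1a2 was the same under all 17 alternatives, and Rarb passed in 16 of them. The number of the 9 genes called was 2 without the dimmest 25% of genes, where 4.84% passed. Without the dimmest 50%, where 7.47% passed, it was 2 of the 7 that were kept. With a trended and robust variance model it was 3, where 4.39% passed. Array quality weights gave 3, where 3548 genes (17.8%) passed, and all probe sets gave 0, where 164 probe sets (0.461%) passed. The cause of these differences was not tested. Array quality weights were the only alternative in which Ncoa7 (adjusted p = 0.0257, limma), Stra6 (0.0257), Rbp4 (0.0196) and Akr1b10 (0.00248) passed. Without 1 array, 191 to 640 genes passed and 1 of the 9 each time. Small changes turned sign: Rara was 0.070 with array quality weights, and without 1 array Crabp2 ranged from -0.0047 to 0.30, Cyp26b1 from -0.20 to 0.0027, Rarg minus Rara from -0.018 to 0.11 and Aldh1a2 minus Aldh1a1 from -0.022 to 0.11. Samples sharing a replicate number were not shown to be paired: their deviations from group means correlated at 0.18, 0.017 and 0.00017, and T3 replicate 2 correlated best with control replicate 3. With the replicate number as a block, 472 genes and 2 of the 9 passed, Aldh1a3 being added (adjusted p = 0.0151) and Rarb kept (0.0162); Fabp5 did not pass (0.0611). The fraction of calls that were higher was 73.5%, against 81.5% after median centring and 67.6% after centring on the 75th percentile. The signals of Crabp2, Cyp26a1 and Cyp26c1 are not known to be above background, which limits what their changes can show.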

Other observations

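The DR5 repeat matched in the Rarb promoter was found in windows of 31 genes of the RefSeq table, of which 11 were among the genes tested. Of these 11, 2 rose with T3, Rarb and Syndig1, a gene of synapse differentiation, and 9 did not pass. Over all genes 2.28% were higher. Rarb was known to be higher before the look-up that it prompted, so the 2 of 11 cannot be compared with that share. The median change of the 11 was -0.0098. Syndig1 went from 8.73 to 9.19, a change of 0.46 ± 0.09 (SE, adjusted p = 0.0376 by limma). Cyp26a1, a breakdown enzyme gene whose promoter repeat is a known retinoic acid response element, had 4.24 and 4.16, a change of -0.07 with adjusted p = 0.858. The repeats of the 3 genes are printed 5′ to 3′ in the direction of the hexamers, which are in capitals.
Rarb: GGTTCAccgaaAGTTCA
Cyp26a1: AGTTCAcccaaAGTTCA
Syndig1: GGGTCAcccctAGTTCA
They lie at chr14:16575513-16575529, chr19:37697776-37697792 and chr2:149830616-149830632 (RefSeq, GRCm38.p6), with 53 to 37, 32 to 16 and 167 to 151 bases from the start, and that of Cyp26a1 is on the strand opposite to its gene. These genes were looked up after the match in Rarb had been seen, and their values are a description.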
